A study of Homo sapiens with 39 samples.

Results

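The response of IM-9 cells to the first hours of ch128.1Av was measured on 9 of the 39 arrays of the series. They are the 5 arrays of IM-9 cells that received ch128.1Av at 10 nM, 2 at 1 h and 3 at 3 h, and the 4 arrays of IM-9 cells that received buffer for the same times, 2 at 1 h and 2 at 3 h. The arrays were chosen by their labels alone, and the hour was kept as a block, so that 1 treatment difference was estimated over both hours. IM-9 is an established human B-lymphoblastoid line that carries Epstein-Barr virus, and the labels call it sensitive to ch128.1Av. U266, a multiple myeloma line that the labels call tolerant, is the other line of the series. The comparison is of the fusion protein with buffer, in 1 line grown in culture plates, and no label describes a group given the antibody without avidin. The labels number the arrays of a group as replicates and do not say whether they came from separate cultures, so p values measure the spread between these samples, which may be technical. The question is which transcripts of the sensitive line differed with ch128.1Av within 3 h.

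ch128.1Av joins an antibody against transferrin receptor 1 to avidin. The receptor, encoded by TFRC, carries iron-loaded transferrin into the cell by clathrin-mediated endocytosis and then returns to the surface. The fusion protein is known to cross-link the receptor and to divert it from this cycle. When cells are short of iron, the iron regulatory proteins stabilise TFRC mRNA and hold back translation of the ferritin mRNAs, of which FTL is one. Immediate early genes such as FOS, FOSB and EGR1 are a separate kind of early response: many stimuli switch them on within minutes, without new protein, and they fall again within hours. Their promoters are known targets of serum response factor, which binds the CArG box, and of CREB, which binds the cyclic AMP response element.

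All levels are normalized intensities on the log2 scale, and differences are log2 differences with a standard error (SE) from limma. A gene was called when its p, after Benjamini-Hochberg adjustment across the 11538 genes tested, was below 0.05. On the 9 arrays, 9143 to 9796 probes were detected and the correlation between replicates of a group ran from 0.998 to 0.999 across genes. Array brightness, that is the 75th percentile of raw intensity divided by the 5th, was 4.71 to 5.31 on the buffer arrays and 4.22 to 6.48 on the treated ones. Its mean difference within hours was 0.490, with an exact two-sided permutation p of 0.417 (60 arrangements, smallest possible p 0.0167). The markers of a transformed B cell were present: FCER2, EBI3, CR2, CCL22 and TRAF1 were detected on all 9 arrays, as were the B-lineage genes CD79A, CD79B, CD22 and BLNK. Other B-lineage markers mostly failed detection, with PAX5 detected on 0 of 9 arrays and MS4A1 and CD72 on 1 each. Of 4 plasma cell markers, PRDM1, TNFRSF17 and SLAMF7 were detected on all 9, TNFRSF17 at 12.98 to 13.26. Markers of T, myeloid, epithelial and stromal cells lay mostly at the floor of detection. Failing detection is a weak sign for a bright probe, since 197 probes failed on an array where they were among its 5000 brightest: SDC1, at 8.95 to 9.17, passed on 2 of 9 arrays, and CD86, at 10.88 to 11.20, on 6 of 9.

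The largest differences among the 9 arrays lay between the hours. The promoters of 3 immediate early genes that were high at 1 h are shown because each carries at least 1 of the elements named above. The windows, from RefSeq (GRCh38.p14), run from 250 bases before to 50 bases after the gene's start, 5′ to 3′. FOS lies at chr14:75278578-75278877, FOSB at chr19:45467746-45468045 and EGR1 at chr5:138465229-138465528, each on the plus strand. Capitals mark the half-site of the cyclic AMP response element, TGACG on either strand, and the CArG box.
FOS: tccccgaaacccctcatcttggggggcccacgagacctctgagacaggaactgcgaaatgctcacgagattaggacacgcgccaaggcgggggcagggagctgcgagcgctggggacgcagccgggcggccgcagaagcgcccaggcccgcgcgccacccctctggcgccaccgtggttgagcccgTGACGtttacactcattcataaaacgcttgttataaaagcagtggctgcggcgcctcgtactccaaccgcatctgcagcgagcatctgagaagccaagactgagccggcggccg
FOSB: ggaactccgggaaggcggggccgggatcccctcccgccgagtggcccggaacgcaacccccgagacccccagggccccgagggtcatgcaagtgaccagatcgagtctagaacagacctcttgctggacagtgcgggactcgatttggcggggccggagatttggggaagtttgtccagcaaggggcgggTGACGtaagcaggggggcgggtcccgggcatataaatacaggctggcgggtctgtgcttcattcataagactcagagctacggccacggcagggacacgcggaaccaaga
EGR1: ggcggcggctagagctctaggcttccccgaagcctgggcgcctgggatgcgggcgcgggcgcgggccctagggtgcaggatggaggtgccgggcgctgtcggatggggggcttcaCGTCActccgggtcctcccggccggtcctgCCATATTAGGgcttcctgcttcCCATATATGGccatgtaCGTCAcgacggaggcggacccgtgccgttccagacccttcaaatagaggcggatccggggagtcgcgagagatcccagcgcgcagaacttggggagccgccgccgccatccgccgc
FOS held 1 such half-site, beginning 64 bases before the start, and FOSB held 1, beginning 60 bases before it. Neither window held a CArG box, and sequence further upstream was not searched. EGR1 held 2 half-sites and 2 CArG boxes, the boxes beginning 105 and 83 bases before the start, and no match overlapped another. Such letters are common: of 34796 distinct promoter windows 24.5% held the half-site and 1.3% a CArG box. Among windows of genes that were lower at 3 h the shares were 31.5% and 1.22%, against 32.1% and 1.24% among all genes tested. Among windows of genes that were higher at 3 h they were 36.6% and 1.88%, and no share was tested. These matches are a description of letters, not of bound sites.

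With ch128.1Av, no gene passed the test over the 2 hours. Limma called 0 of 11538 genes in either direction (background 0%), the smallest adjusted p was 0.276, and 434 genes (3.76%) had an unadjusted p below 0.05. The differences ran from -0.38 to 0.37, with a median of -0.0012 and a median SE of 0.0484. For 11501 genes (99.7%) the 95% interval of the difference lay within a 1.5-fold change either way, and for 10164 (88.1%) within 1.2-fold. These intervals are on the normalized scale, which compresses differences near the detection floor. A probe detected on all 9 arrays was available for 8262 genes, and the shares do not bound the fold of dim genes. Treated and buffer arrays did not overlap at either hour, in the same direction at both, for 271 genes that were higher (2.35%) and 249 that were lower (2.16%). With array weights estimated by limma 15 genes passed, among them TRIP12, BCAR3, PTGER4 and SYAP1 higher and CCR7, CD86, AGFG1 and MDFIC lower (smallest adjusted p 0.0255), and in a fit of the 9 arrays alone 1 passed, TRIP12 (adjusted p = 0.0491).

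**Figure D1:**
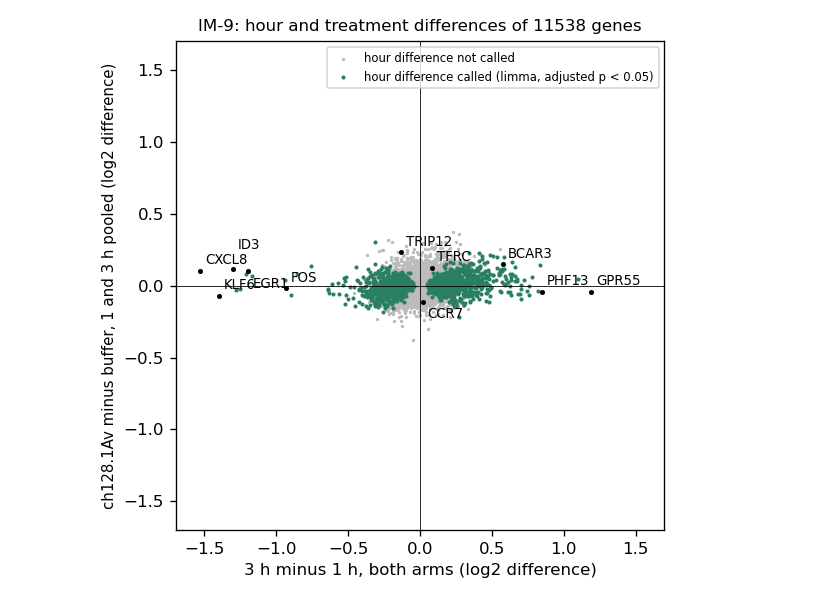
Each point is 1 of the 11538 genes tested in IM-9, with the log2 difference between 3 h and 1 h over both arms on the x axis and the log2 difference between ch128.1Av and buffer, 1 and 3 h pooled, on the y axis, drawn to the same scale. The cloud reaches from -1.53 (CXCL8) to 1.19 (GPR55) along the hour axis and only from -0.38 to 0.37 along the treatment axis, and green points are the genes called between the hours.

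TFRC, the gene of the targeted receptor, was measured first. Its level was 14.36 and 14.36 on the buffer arrays at 1 h and 14.45 and 14.45 on the treated ones. At 3 h it was 14.37 and 14.45 with buffer and 14.60, 14.58 and 14.50 with ch128.1Av. The equal levels are ties, because quantile normalization gives probes of the same rank the same value on each array. They do not measure the spread between the replicates at 1 h. The treated arrays stood above the buffer arrays at each hour without overlap, by 0.12 in the pooled estimate (SE 0.0363, 1.09-fold, 95% interval 0.05 to 0.20), but the difference did not pass the test over all genes (limma, adjusted p = 0.798, unadjusted p = 0.0022; adjusted p = 0.0503 with array weights). The separate estimates were 0.09 at 1 h and 0.15 at 3 h. Untreated cells at 0 h stood at 14.61 and 14.46, within or above the range of the treated arrays.

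The rest of the iron and endocytosis machinery gave no call. Over all genes tested 48.6% had a treatment difference above 0, the figure against which such counts are to be read here and below. Of 17 genes tested for iron uptake, storage and iron regulation, 10 had a difference above 0, with a list median of 0.0082 against -0.0012 over all genes. FTL, the ferritin light chain, differed by 0.0018 (SE 0.0271, adjusted p = 1.00), with levels between 14.68 and 14.82 on all 9 arrays. HMOX1, which breaks down heme, was at -0.13 (SE 0.067, adjusted p = 1.00). Of 25 genes tested for receptor internalisation and recycling, 16 were above 0 and the differences spanned -0.15 to 0.12, TFRC being the highest. NDRG1, an iron- and oxygen-responsive gene, was detected on none of the 9 arrays and has only a bound there.

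**Figure D2:**
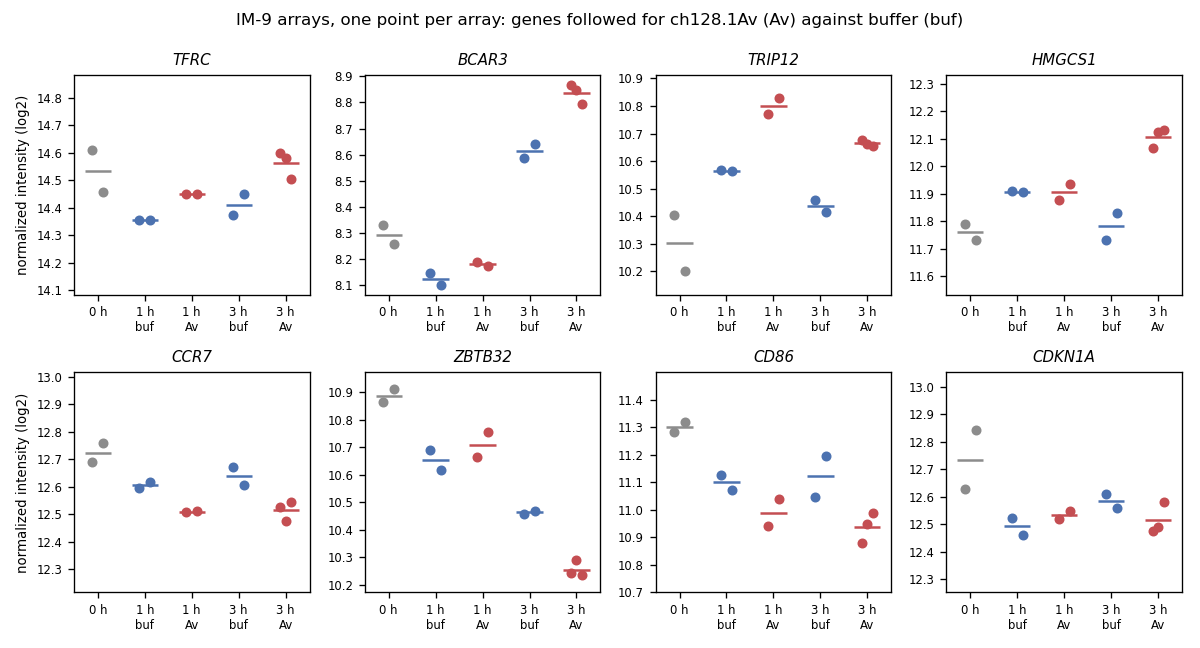
Normalized log2 intensity of 8 genes on each IM-9 array, with a point per array and a bar at the group mean, for untreated cells at 0 h (grey), buffer (blue) and ch128.1Av (red) at 1 and 3 h. The y axes have different ranges. TFRC, TRIP12 and BCAR3 stand higher with ch128.1Av at both hours and CCR7 lower, HMGCS1 and ZBTB32 stand apart at 3 h, and CDKN1A overlaps between the arms at 3 h.

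The smallest p among the genes that were lower belonged to CCR7, the chemokine receptor that guides lymphocytes to lymph nodes. CCR7 was 12.60 and 12.62 with buffer and 12.51 and 12.51 with ch128.1Av at 1 h. At 3 h it was 12.67 and 12.61 with buffer and 12.53, 12.47 and 12.54 with ch128.1Av. The arms did not overlap at either hour, yet the difference of -0.11 (SE 0.0223, 1.08-fold) had an adjusted p of 0.276 in limma. CD86, a costimulatory ligand for T cells, was at -0.15 (SE 0.0382, adjusted p = 0.56), with 11.13 and 11.07 on the buffer arrays at 1 h against 10.94 and 11.04. The CD86 probe used passed detection on 3 of 4 buffer and 3 of 5 treated arrays. Others among the 10 lowest by p were AGFG1 (-0.24), TMEM185A (-0.15), TNIK (-0.16), MDFIC (-0.13), C14orf93 (-0.14), NAPSA (-0.10) and POFUT3 (-0.08), with adjusted p from 0.45 to 0.77, and SPP1. POFUT3 was detected on 4 of 9 arrays and lay close to the detection floor, where differences are compressed, and SPP1 was detected on 0 of 5 treated arrays, so no difference is given for it.

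BCAR3, an adaptor of the p130Cas pathway, had the smallest p among the genes that were higher. Its level was 8.15 and 8.10 with buffer and 8.19 and 8.18 with ch128.1Av at 1 h. At 3 h it was 8.59 and 8.64 with buffer and 8.87, 8.85 and 8.80 with ch128.1Av. The pooled difference was 0.15 (SE 0.0299, adjusted p = 0.276), made up of 0.06 at 1 h and 0.22 at 3 h. TRIP12, a ubiquitin ligase, was 10.57 and 10.56 with buffer and 10.77 and 10.83 with ch128.1Av at 1 h, and 10.46 and 10.41 against 10.68, 10.66 and 10.66 at 3 h. Its difference of 0.23 (SE 0.0511, 1.17-fold) was nearly the same at both hours and had an adjusted p of 0.451. The remaining 8 of the 10 highest by p were SYAP1 (0.25), PTGER4, a receptor of prostaglandin E2 (0.15), PRTFDC1 (0.14), ARHGEF12 (0.09), HOMER1 (0.09), PDGFC (0.08) and FCRL4 (0.07), with adjusted p from 0.45 to 0.77, and CADPS2. FCRL4 passed detection on 0 of 4 arrays at 1 h and on 5 of 5 at 3 h, and CADPS2 on 0 of 9, so that no difference is given for CADPS2.

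Genes of signalling that starts at the cell surface were not called with ch128.1Av either. Of 22 immediate early genes tested 10 were above 0 (list median -0.0051). EGR1 was at 0.10 (SE 0.0489), FOSB at 0.04 (SE 0.0182) and IER5 at -0.16 (SE 0.0814), each with an adjusted p of 1.00. Of 24 feedback genes of the MAPK and AKT pathways 11 were above 0, among them TRIB1, a pseudokinase, at 0.10. PIM1, a kinase gene of the same list, was at -0.09. Of 26 feedback and target genes of NF-kB 10 were above 0, with REL, a subunit, at 0.06 and BCL3, a nuclear regulator, at -0.07. Of 22 genes listed as responding to the B cell receptor 14 were above 0 (list median 0.0286), with BLNK, its adaptor, at 0.09. That list holds BCAR3 and ZBTB32 and was chosen with earlier results of these data known.

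Among stress, cell cycle and death genes no difference was called either. CDKN1A, the cell cycle inhibitor induced by p53, was at -0.02 (SE 0.057) and its levels on the 9 arrays ran from 12.46 to 12.61. Of 24 p53 targets 16 were above 0 with a list median of 0.0124, and 0 were called. DDIT3, a factor of the unfolded protein response, was at -0.01 (SE 0.0591), and the lists of ATF4 targets and of the endoplasmic reticulum response had medians of -0.0040 and 0.0066. HSPA4, a chaperone, had the highest difference of 17 heat shock genes at 0.31 (SE 0.144, adjusted p = 1.00). Of 28 hypoxia targets 12 were above 0. ENO2, a glycolytic enzyme, was at -0.15 (SE 0.0494), SLC2A3, a glucose transporter, at 0.10 and BNIP3, a mitophagy receptor, at 0.05 (SE 0.108). MYC was at 0.01 (SE 0.0426). In the cell cycle lists 8 of 25 genes of G1/S and 15 of 30 of G2/M were above 0, with MCM6 at 0.13 and CCNB1 at 0.27. The apoptosis list had a median of 0.0038 over 25 genes.

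The list with the highest median was that of cholesterol synthesis, whose genes are targets of SREBP-2. Its median was 0.0434 over 18 genes, of which 12 were above 0 and 0 were called. HMGCS1, which makes the precursor of mevalonate, was 11.91 and 11.90 with buffer and 11.88 and 11.93 with ch128.1Av at 1 h. At 3 h it was 11.73 and 11.83 with buffer and 12.07, 12.12 and 12.13 with ch128.1Av. HMGCS1 therefore overlapped at 1 h and stood apart at 3 h, with a pooled difference of 0.18 (SE 0.061, unadjusted p = 0.0077, adjusted p = 1.00). MSMO1 was at 0.24 and IDI1 at 0.16, both enzymes of the same pathway and neither passing the test. The interferon-stimulated list had the fewest genes above 0 for its size, 3 of 18, at a median of -0.0197, with HERC5 at 0.10. PRDM1, the regulator of plasma cell differentiation, was at 0.25 (SE 0.103, adjusted p = 1.00) and IRF4 at 0.09 (SE 0.0546). Respiratory chain subunits, with 11 of 21 above 0, and genes of iron-sulfur cluster and heme synthesis, with 11 of 20, had medians of 0.0077 and 0.0090.

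A single difference over both hours could hide opposite ones, so the effect at 3 h was tested against that at 1 h. Limma called 0 genes (263 at an unadjusted p below 0.05, smallest adjusted p 0.236). ZBTB32, a transcriptional repressor of lymphocytes, had the smallest p. It was 10.69 and 10.62 with buffer and 10.66 and 10.75 with ch128.1Av at 1 h, and 10.46 and 10.47 against 10.24, 10.29 and 10.23 at 3 h. The difference between the 2 effects was -0.26 (SE 0.0493, adjusted p = 0.236). Others with small p were KLHL23 (0.32), ATP7A, a copper transporter (0.17), C2orf69 (0.16), LRRC56 (-0.21) and RFX2 (-0.13), with adjusted p of 1.00, and ATP7A was detected on 5 and C2orf69 on 2 of the 9 arrays. Taken alone, 1 h gave 0 calls (236 at an unadjusted p below 0.05) and 3 h gave 2, BCAR3 higher by 0.22 (SE 0.0341, adjusted p = 0.0122) and ZBTB32 lower at -0.21 (SE 0.0332, adjusted p = 0.0126), 0.0173% of the genes tested.

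The arrays of 3 h and 1 h, in contrast, differed in many genes over both arms. Limma called 1393 genes (12.1%), 732 higher at 3 h (6.34%) and 661 lower (5.73%), of which 10 changed at least 2-fold. The levels of the hours did not overlap for 1010 genes that were higher at 3 h (8.75%) and 1028 that were lower (8.91%). With arrays scaled to equal medians in place of quantiles the count fell to 216, 72 higher and 144 lower, so the balance of directions depends on the scaling. Without treated replicate 2 at 1 h the count was 928. For the 16 genes with the largest called changes and no overlap between hours, the treatment difference lay between -0.07 (KLF6) and 0.14 (TENT4A), with a limma adjusted p of 1.00 in each. Hour and any handling that differed between the 2 collections cannot be told apart.

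The genes that were lower at 3 h included FOS, EGR1 and FOSB. Their promoter windows were shown because each holds at least 1 of the marked elements. FOS, a subunit of the AP-1 factor, was 8.64 and 8.77 with buffer and 8.61 and 8.67 with ch128.1Av at 1 h, and 7.70 to 7.78 on the 5 arrays at 3 h, where it was not well above background. It was therefore at least 1.86-fold lower at 3 h (limma, adjusted p = 4.23e-19). EGR1, a zinc finger factor, was 9.13 and 8.95 with buffer and 9.34 and 9.10 with ch128.1Av at 1 h, and 7.90 to 7.98 at 3 h. The hours did not overlap, and EGR1 was 2.29-fold lower at 3 h (SE 0.0489 on the log2 scale, adjusted p = 4.26e-15). FOSB fell by 0.94 (SE 0.0182, adjusted p = 4.1e-22), from 8.75 to 8.79 at 1 h down to 7.79 to 7.86 at 3 h, where it was detected on 3 of 5 arrays. Differences this near the floor are compressed on the scale used here: in the authors' deposited log2 values they were -2.01 for FOS, -1.66 for EGR1 and -1.68 for FOSB. The source of the compression was not tested.

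CXCL8, a neutrophil chemokine, showed the largest fall. It was 9.86 and 10.02 with buffer and 10.16 and 9.99 with ch128.1Av at 1 h, and 8.48 and 8.40 against 8.41, 8.53 and 8.62 at 3 h. CXCL8 fell by 1.53 (SE 0.0381, 2.89-fold, adjusted p = 6.99e-20), while its treatment difference was 0.10 (adjusted p = 1.00). KLF6, a zinc finger factor, was 12.16 to 12.19 on the 4 arrays at 1 h and 10.61 to 10.84 at 3 h, a fall of 1.40 (SE 0.112, 2.63-fold, adjusted p = 1.73e-09). The chemokine CCL3 fell by 1.17 and its near-identical copy CCL3L3 by 1.21, and their probes may share signal. ID3, an inhibitor of helix-loop-helix factors, fell by 1.30 (SE 0.0804) from 12.57 to 12.63 at 1 h. TXNIP, which binds thioredoxin and restrains glucose uptake, fell by 1.28 (SE 0.136) from 11.46 to 11.52 at 1 h to 10.10 to 10.26 at 3 h.

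GPR55, a receptor for lysophosphatidylinositol, showed the largest rise. It was 9.35 and 9.19 with buffer and 9.17 and 9.37 with ch128.1Av at 1 h, and 10.44 and 10.56 against 10.43, 10.33 and 10.50 at 3 h. The hours did not overlap, and GPR55 was 1.19 higher at 3 h (SE 0.0637, 2.28-fold, adjusted p = 9.79e-13). PHF13, a chromatin reader, was 0.85 higher (SE 0.0392), TENT4A, a poly(A) polymerase, 0.83 (SE 0.0844) and MIDN, which delivers nuclear proteins to the proteasome, 0.82 (SE 0.062). STC2 (0.78), the lysosomal transporter SLC17A5 (0.76), the TNF family ligand TNFSF14 (0.75) and DDIAS (0.72) were the next.

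**Figure D3:**
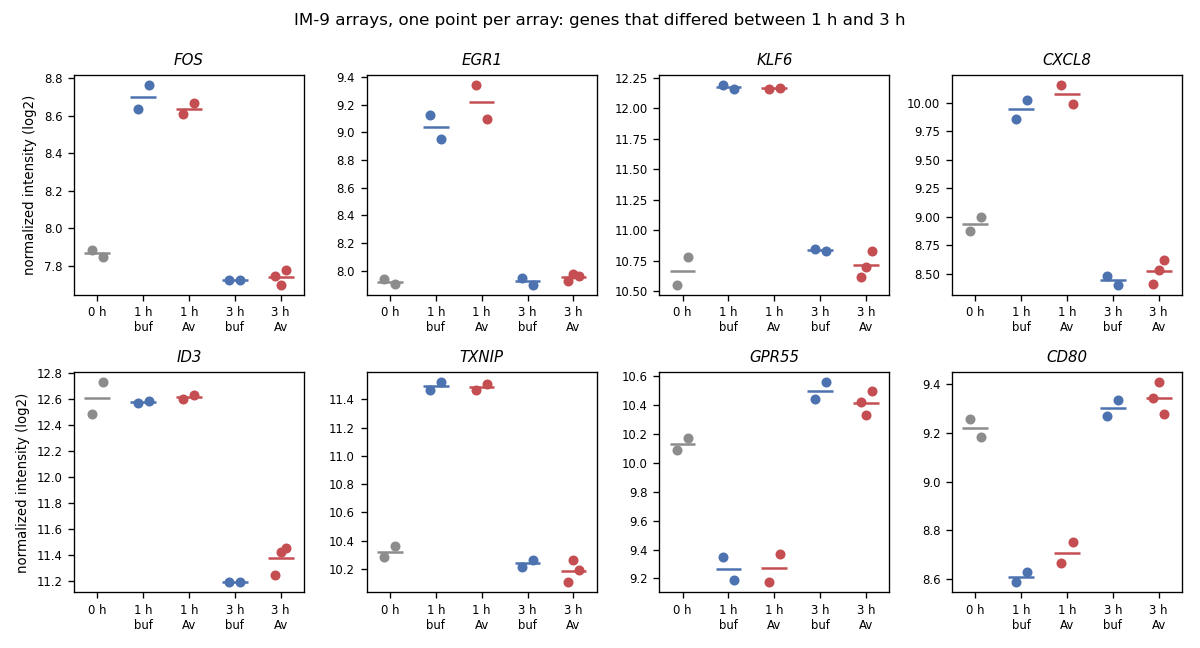
Normalized log2 intensity of 8 genes on each IM-9 array, with a point per array and a bar at the group mean, for untreated cells at 0 h (grey), buffer (blue) and ch128.1Av (red) at 1 and 3 h. The y axes have different ranges. FOS, EGR1, KLF6, CXCL8 and TXNIP stand high at 1 h in both arms and near or below the 0 h level at 3 h, ID3 is high at 0 and 1 h, and GPR55 and CD80 are lowest at 1 h.

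Untreated cells at 0 h, 2 arrays outside the 9, show where the 1 h levels stood, with no test. EGR1 was 7.94 and 7.90 at 0 h, FOS 7.89 and 7.85 and FOSB 7.82 and 7.81, all below their levels at 1 h. KLF6 was 10.55 and 10.78, CCL3 10.29 and 10.46 and TXNIP 10.28 and 10.36, each close to its 3 h level. CXCL8, at 8.88 and 9.00, lay between the hours. ID3 was 12.49 and 12.72, at its 1 h level. GPR55, at 10.09 and 10.17, and CD80, at 9.26 and 9.18, were nearer to 3 h than to 1 h, where they were lowest.

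By list, the called shares for the hour are to be read against 12.1% over all genes, and the members named in this and the next paragraph beyond the largest changes were chosen after their values were seen. Of 24 feedback genes of the MAPK and AKT pathways 6 were higher and 6 lower. DUSP1, a phosphatase of MAP kinases, fell by 0.90 (adjusted p = 5.59e-12), and PIM1 by 0.50, SPRY2 by 0.32 and TRIB1 by 0.29. DUSP4, another MAP kinase phosphatase, was 0.59 higher (adjusted p = 3.02e-11) and SPRED1, an inhibitor of RAS signalling, 0.64 higher. Of 22 immediate early genes 6 were lower and 1 higher, with SGK1, a kinase, falling by 0.61 (adjusted p = 5.79e-09). Of 22 B cell receptor response genes 7 were lower and 3 higher. CD69, an activation antigen, fell by 0.44 and ZBTB32 by 0.34, and BCAR3 was 0.58 higher. ZBTB32 and BCAR3 were also in the followed set, and this list was chosen with earlier results of these data known. Of 26 NF-kB genes 2 were lower and 3 higher. NFKBIA, the inhibitor that NF-kB itself induces, fell by 0.49 (adjusted p = 5.71e-06) while NFKBIE, its relative, was 0.43 higher. The balance of directions in these lists depended on the scaling. With equal array medians the MAPK and AKT list had 1 higher and 5 lower and the immediate early list 0 and 5. The B cell receptor list then had 1 and 5 and the NF-kB list 0 and 2, and TRIB1, SPRED1 and NFKBIE were no longer called. In that setting 216 of 11538 genes were called, 72 higher and 144 lower. These list counts are to be read against that share, not against 12.1%.

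Of 18 host genes known from lymphoblastoid activation 7 were higher and 1 lower. CD80, a costimulatory ligand, was 0.66 higher (SE 0.0357, adjusted p = 1e-12), SLAMF1 0.46, LMNA 0.46, CD58, an adhesion ligand, 0.40, and IRF4, a regulator of plasma cell fate, 0.35. Of 16 genes of B cell identity 5 were lower and 1 higher, among them CD22 at -0.34, POU2F2 at -0.30 and its coactivator POU2AF1 at -0.26. Of 17 heat shock genes 6 were lower and 1 higher: DNAJA1 fell by 0.36, CHORDC1 by 0.51 and HSPA8 by 0.18, and the probe named for HSPA1B, a gene with a near-identical copy, was 0.40 higher. Of 28 hypoxia targets 5 were lower and 3 higher, with BHLHE40 at -0.46, P4HA1 at -0.36 and DDIT4, an inhibitor of mTOR, at 0.69. PPP1R15A, a phosphatase subunit that restores translation after stress, fell by 0.63 (adjusted p = 2.21e-07). Respiratory chain subunits gave 0 of 21. With equal array medians, where 216 of 11538 genes were called, the lymphoblastoid list had 2 higher and 0 lower. Heat shock had 0 higher and 1 lower, B cell identity 0 and 1, and hypoxia 0 and 2. Of the genes named in this paragraph CD80, SLAMF1, CD22, DNAJA1, BHLHE40 and PPP1R15A were still called there, and LMNA, CD58, IRF4, POU2F2, POU2AF1, CHORDC1, HSPA8, HSPA1B, P4HA1 and DDIT4 were not. Without treated replicate 2 at 1 h, 928 of 11538 genes were called, 519 higher and 409 lower. The heat shock list then kept 3 lower, the B cell identity list 2 lower and the lymphoblastoid list 5 higher and 0 lower. CD22, POU2F2, CD58, HSPA8 and P4HA1 were no longer called without that array.

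**Figure D4:**
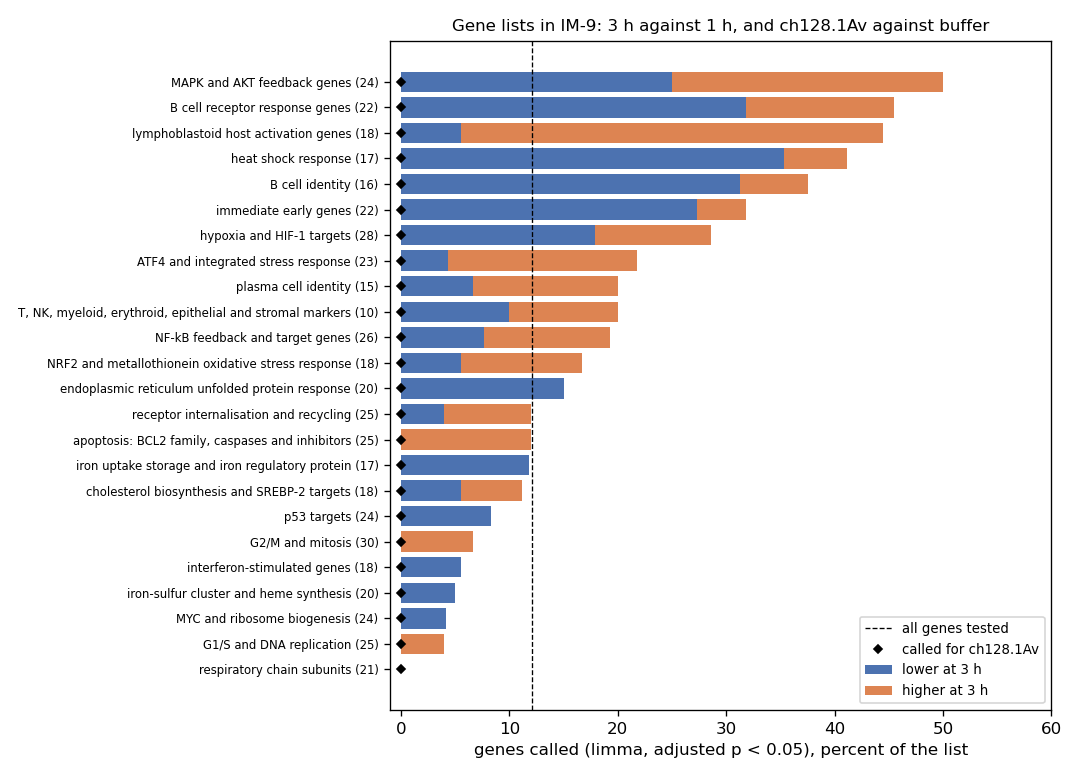
For each gene list, with the number tested in brackets, the bar gives the percent of its genes called lower (blue) or higher (orange) at 3 h than at 1 h in IM-9, the dashed line the 12.1% called over all genes, and the diamond the percent called for ch128.1Av against buffer. Every diamond is at 0, and the bars run from 0 of 21 respiratory chain subunits to 12 of 24 MAPK and AKT feedback genes.

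Against the tolerant line at the same hours, the early effect in IM-9 was called different in 1 of 11538 genes (0.00867%). SESN1, a p53 target that restrains mTOR, was at 0.06 in IM-9 and -0.27 in U266, a difference of 0.32 (SE 0.0527, adjusted p = 0.022). Its IM-9 levels, 7.85 to 8.02, lay close to the detection floor. The next smallest p belonged to COX8A (0.21), SEMA4F (0.31), IMPA2 (-0.42), OCEL1 (-0.29) and AGFG1 (-0.44), none called. In limma 1362 genes (11.8%) had an unadjusted p below 0.05 for this difference, and 782 (6.78%) with array brightness as a covariate. The single call therefore does not show that the lines responded alike in the other genes. TFRC differed by 0.13 between the lines (SE 0.0511, adjusted p = 0.347). TRIP12, at 0.23 in IM-9, was at 0.26 in U266 (adjusted p = 0.0114 there) and did not differ beyond its error (-0.03, 95% interval -0.18 to 0.11). In U266 itself 189 genes were called (1.64%), 78 higher (0.676%) and 111 lower (0.962%). Array brightness there was 8.10 to 9.21 on the early buffer arrays and 3.95 to 9.27 on the treated ones, and its part in those calls and in the difference was not tested beyond a fit with brightness as a covariate, in which SESN1 lost its call (0.24, adjusted p = 0.205).

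The early effect was then set against that at 24 h, on arrays that the 2 effects do not share. At 9 h limma called 10 genes (0.0867%), 5 in each direction (0.0433%), and at 24 h 1544 (13.4%), 710 higher with ch128.1Av (6.15%) and 834 lower (7.23%). The difference between 24 h and the early hours was called for 1254 genes (10.9%), 613 more positive at 24 h (5.31%) and 641 more negative (5.56%). With equal array medians the count was 340, 40 and 300 in the 2 directions, and with brightness as a covariate 385. Brightness at 24 h was 9.24 and 9.29 on the buffer arrays and 3.97 and 6.71 on the treated ones. TP53I3, a p53 target, went from 0.01 early to 1.66 at 24 h, a difference of 1.65 (SE 0.121, adjusted p = 2.19e-09). APOBEC3G, a cytidine deaminase, went from -0.07 to 0.99, and CDKN1A from -0.02 to 0.94 (difference 0.96, adjusted p = 1.25e-06). CCR7 changed sign, from -0.11 early to 0.59 at 24 h (difference 0.70, SE 0.0398, adjusted p = 3.23e-11), and CD86 from -0.15 to 0.25 with the probe used. Another CD86 probe, detected on all 9 early arrays, was not called for this difference. TFRC went from 0.12 through 0.31 at 9 h (adjusted p = 0.0161) to 0.59, and the step from early to 24 h was 0.46 (SE 0.065, adjusted p = 6.58e-05).

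Other genes moved the opposite way. BCAR3 was at 0.15 early and -0.12 at 24 h (difference -0.27, adjusted p = 0.0019), and HMGCS1 at 0.18 and -0.28 (difference -0.46, adjusted p = 0.0083). PTGER4 was at 0.15 early, at 0.37 at 9 h (adjusted p = 0.0034) and at -0.21 at 24 h. FJX1 (-0.71), WDR4 (-0.49) and IL16 (-0.42) had the smallest p among the more negative differences. FTL went from 0.0018 to -0.30 (adjusted p = 0.00025), a difference that turned to 0.51 (adjusted p = 0.498) with equal array medians.

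**Figure D5:**
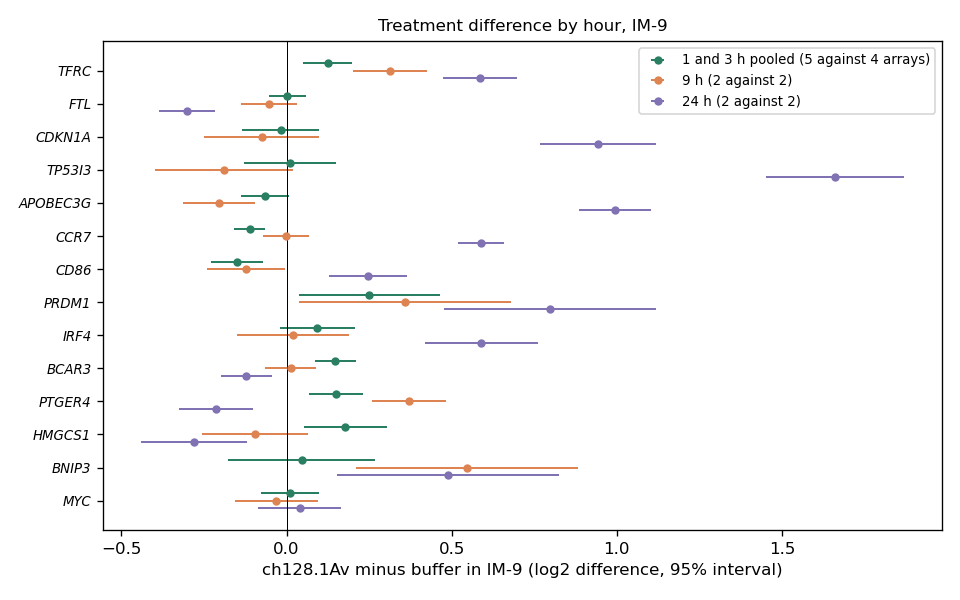
Difference between ch128.1Av and buffer in IM-9 for 14 genes, in log2 units with 95% intervals, at 1 and 3 h pooled (5 against 4 arrays), at 9 h and at 24 h (2 against 2 arrays each). The early points lie between -0.15 and 0.25, while at 24 h TP53I3 reaches 1.66, APOBEC3G 0.99, CDKN1A 0.94 and TFRC 0.59.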

How the data were processed

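Total RNA of IM-9 and U266 cells was measured on Illumina BeadChip arrays. The deposited scanner table held a mean intensity per probe and array, linear and not normalized, and a detection score, a fraction whose complement served as detection p, although some bright probes failed it, so it may not be a plain rank against negative controls. Log2 values in the other deposited table, quantile-normalized by the authors as the values show, were an alternative. BeadStudio is named in the submitters' processing notes, without a version. The 78 columns of bead numbers and bead spread were left aside. Of 20589 probes 18332 carried 1 symbol and 2257 none.

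R 4.3.3 and limma 3.58.1 were used, with its neqc on the intensities (offset 16). Probes with a detection p below 0.01 on at least 2 arrays were kept, and the brightest probe of each gene was tested, 11538 in all. lmFit and eBayes were fitted over all 39 arrays, so that groups of 2 or 3 share 1 estimate of spread, with 1 mean for each hour and 1 treatment coefficient for the 9 early IM-9 arrays (22 residual degrees of freedom). Tests were two-sided with Benjamini-Hochberg adjustment over all genes. For arrays, their number limits the precision. A fold against arrays where a gene was not well above background used the lowest detected level, or the gene's own level where higher, and is written "at least". Replicate numbers were not taken as pairs: same-numbered deviations correlated at -0.034 at 1 h and at -0.458 and -0.112 at 3 h. The fit was tested on simulated data. Brightness was compared by exact permutation within hours.

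Named genes were a followed set (TFRC, FTL, FTH1, MYC, BNIP3, NDRG1, CDKN1A, DDIT3, HMOX1, BCAR3, ZBTB32; FTH1 was not analysed here), the 10 smallest p in each direction of the pooled effect, up to 3 members of each of 24 gene lists, the 8 largest hour changes in each direction without overlap, and 3 in each direction for each difference. The members and lists were chosen with earlier results of these data known. Alternatives were scaling, the source table, background correction, the detection filter, brightness, array weights, the arrays fitted, the hours pooled and each array left out. Promoter windows came from RefSeq, matched by symbol.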

Additional observations from a re-analysis of the deposited data

Results flagged for a closer look

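The difference between the lines in the early effect was tested for every gene, and 1 passed: SESN1, at 0.32, with IM-9 at 0.06 and U266 at -0.27. It was lost when any of 6 of the 9 arrays was left out. The difference between 24 h and the early hours in IM-9 passed for 1254 genes. Among the genes named, the difference in log2 units was 1.65 for TP53I3, 1.06 for APOBEC3G, 0.96 for CDKN1A, 0.70 for CCR7, 0.46 for TFRC and 0.40 for CD86. It was -0.71 for FJX1, -0.49 for WDR4, -0.46 for HMGCS1, -0.42 for IL16, -0.36 for PTGER4, -0.30 for FTL and -0.27 for BCAR3. With equal array medians WDR4 (adjusted p = 0.214) and CD86 (0.23, adjusted p = 0.424) lost the call. The CD86 probe used was not detected on all 9 arrays. Among probes that were, another CD86 probe took its place and was not called (0.24, adjusted p = 0.0797). These are tested differences between the early and the 24 h effect, and buffer and treated arrays at 24 h differed in brightness, whose part was not tested beyond the covariate fit.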

How the results depend on the processing

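The pooled early effect gave 0 calls under every alternative except 3 h alone (2), only the 9 early arrays (1) and array weights (15), and 0 without each array. The hour effect gave 216 calls with equal array medians, 2153 with only the 9 arrays, and 928 to 1269 without each array in turn, the lowest without treated replicate 2 at 1 h. The effect at 3 h minus that at 1 h gave 0 calls except 1 (SAMSN1) without buffer replicate 1 at 1 h. The difference between the lines gave 0 calls with equal array medians, the authors' values, no background correction and the brightness covariate, and 0 to 1 without each array. The 24 h difference gave 340 with equal array medians, 385 with the brightness covariate and 898 to 1362 without each array. Equal array medians put the median of all genes at 0.0428 for the pooled effect and at -0.0406 for the hour effect. The median was -0.113 for the hour difference in effect, 0.155 for the difference between lines and -0.0712 for the 24 h difference. Values under this scaling are to be read beside those medians, but single genes did not all move by the same amount. The 24 h difference of FTL went from -0.30 to 0.51. With the replicate number as a block, which the check of pairing did not bear out, the pooled effect gave 0 calls, the hour effect 1158 and the difference between hours 0, and no called count moved by over 1.5 times.

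Some values of named genes turned sign, none called under that setting, and the cause was not tested. For the pooled effect with equal array medians, the median over all genes was 0.0428. FTL was then -0.012, CDKN1A 0.049, DDIT3 0.059, ZBTB32 0.030 and NAPSA 0.0048. With the brightness covariate CDKN1A was 0.0010 and DDIT3 0.018. At 1 h alone MYC was -0.063, CDKN1A 0.041, DDIT3 0.052, ZBTB32 0.055 and HMGCS1 -0.0016. Without each array FTL ran from -0.017 to 0.020, MYC from -0.011 to 0.036, CDKN1A from -0.039 to 0.0052 and DDIT3 from -0.035 to 0.0096. With equal array medians the hour difference of TFRC was -0.19, the difference between lines -0.019 for COX8A and 0.13 for OCEL1, and the 24 h difference of FTL 0.51. The number of arrays limits the precision, the median SE being 0.0484 with a spread between genes, and levels near the floor of 7.77 are compressed.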

Other observations

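Genes called at 24 h were looked up in the early fit, an inspection added after the data were seen and made without a test. Of the 710 genes that were higher with ch128.1Av at 24 h, 182 (25.6%) had an early difference above 0, at a median of -0.0305. Of the 834 that were lower at 24 h, 553 (66.3%) had an early difference above 0, at a median of 0.0194, and over all genes the share was 48.6%. The early and 24 h effects share no array. Leaving out each early array in turn gave 22.8% to 33.4% for the first set and 58.4% to 73.3% for the second. With array brightness as a covariate the sets shrank to 294 and 337 genes, and the shares were 41.5% and 49.9%, against 48.4% over all genes. With equal array medians they were 41.5% of 142 and 89.2% of 297, against 78.1% over all genes. In the authors' deposited log2 values they were 26.7% and 69.9%. Brightness was 4.71 to 5.31 on the early buffer arrays and 4.22 to 6.48 on the treated ones, but 9.24 and 9.29 against 3.97 and 6.71 at 24 h.

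Among single genes, CCR7 and, with the probe used, CD86 had early differences below 0 and were higher at 24 h. BCAR3, HMGCS1 and PTGER4 had early differences above 0 and were lower at 24 h. TFRC had a difference above 0 at both, and none of the early differences of these genes passed the test.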
